A study of Bos taurus with 9 samples.

Results

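The genes described are PARP14, PARP9, DTX3L, PARP10 and PARP12, which are interferon-induced in human and mouse cells, and PARP1 and PARP2, PARPs that are not known as interferon targets. These 7 genes were picked by name from the 24596 genes of the deposited table, because PARP14 and DTX3L had lower exon reads in the groups LOWAA and HIGHGLUC than in control. For PARP14 and DTX3L the values against control are therefore a description and carry no test, whereas the other 5 genes, and LOWAA against HIGHGLUC for all 7, were tested. All 7 passed the filter on low counts in exon reads (11839 genes kept) and in intron reads (9713 genes kept).

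The samples were bovine endometrial epithelial cells (BEEC), primary cells from the inner surface of 3 uteri, grown as monolayers and pooled over 3 wells per sample. Groups of 5 morulae (embryos before the blastocyst stage) lay on the monolayers between day 4 and day 8 after fertilisation. The embryos came from a regime labelled LOWAA, from a regime labelled HIGHGLUC or from the control, with 3 libraries per group, and the labels do not spell out the first 2 names. All groups held embryos, so no group shows BEEC without them, and the labels tie no library to a culture, uterus or animal of its own, so a p-value here reflects no more than how these libraries scatter. Passage 1 is named in the protocols and passage 2 among the sample characteristics.

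PARPs use NAD+ to attach ADP-ribose to proteins. PARP14, PARP10 and PARP12 attach it as single units, while PARP9 works as a partner of DTX3L, an E3 ubiquitin ligase of the Deltex family. In human and mouse cells type I interferon induces these genes through factors that include STAT2 and IRF9, and in the cow uterus the interferon is interferon tau, secreted by the trophectoderm of the embryo. PARP1 and PARP2 sit at DNA breaks, where they build chains of ADP-ribose that call in repair factors.

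Control replicate 5 was the shallowest library, with 2887097 exon and 219124 intron reads, and control replicate 9 the deepest, with 13969325 and 1643336. Summed epithelial markers were at 8046 to 8498 CPM (counts per 1000000 exon reads) in LOWAA, 7876 to 8333 CPM in HIGHGLUC and 7839 to 8927 CPM in control. CLDN7 and GRHL2, of the 8 epithelial markers, were at 0 in all 9 libraries. The 9 stromal markers summed to 11161 to 13102 CPM in LOWAA, 10563 to 12766 CPM in HIGHGLUC and 10840 to 13160 CPM in control, above the epithelial sum in every library. The 9 leukocyte markers summed to at most 17.3 CPM with PTPRC, CD3E and CD79A at 0, and the 5 endothelial markers to at most 4.5 CPM with CDH5 and KDR at 0. Of 10 embryo markers 5 were found by symbol, summing to 88.8 to 104 CPM in LOWAA, 104 to 112 CPM in HIGHGLUC and 96.9 to 99.8 CPM in control. Nearly all of this came from TEAD4 and GATA2. IFNT2 had a mean of 0.167 CPM and GATA3 of 0.205 CPM over all libraries, and SOX2 was at 0. The ranges of LOWAA and control overlapped in all 5 lists, those of HIGHGLUC and control in all but the embryo list, and the part of that list in the values below was not tested. In bulk RNA fewer cells that express a gene and less RNA per cell cannot be told apart.

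Per kilobase of exon, DTX3L was the most abundant of the 7 transcripts, at 85.5 ± 12 RPKM over all libraries (SD, n = 9), and it lay above PARP14 in 9 of 9 libraries. PARP14 (60.9 ± 11.9 RPKM), PARP9 (60.5 ± 7.02 RPKM) and PARP12 (59.1 ± 7.2 RPKM) followed, with PARP14 above PARP9 in 4 of 9 libraries and PARP9 above PARP12 in 5 of 9. By group, PARP14 stood at 0.886 ± 0.0269 of PARP9 in LOWAA, where it was lower in 3 of 3 libraries, at 1.04 ± 0.216 in HIGHGLUC and at 1.09 ± 0.0773 in control, where it was higher in 3 of 3 (SD, n = 3 each). PARP1 had 54.8 ± 4.04 RPKM and lay below PARP12 in 7 of 9 libraries. PARP10 had 45.1 ± 6.92 RPKM and PARP2 20.3 ± 1.72 RPKM, each below the preceding gene in 9 of 9 libraries. By group mean, PARP14 ranked 5 in LOWAA (48.1 ± 4.69 RPKM) and 2 in both HIGHGLUC (61.5 ± 8.37 RPKM) and control (73.1 ± 1.98 RPKM). Its HIGHGLUC rank rests on replicate 6 (71.1 RPKM), since PARP14 lay above PARP9, the next gene, in only 1 of 3 HIGHGLUC libraries. PARP14 was chosen for being lower than control, so its ranks and ratios against control are a description.

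PARP14, the largest of the mono-ADP-ribosylating PARPs, is ENSBTAG00000016656 on chromosome 1, from 67613091 to 67659266 (build UMD3.1, as are all positions), with 17 exons. Its exon reads were 294, 277 and 328 CPM in LOWAA replicates 8, 12 and 15. They were 439, 352 and 341 CPM in HIGHGLUC replicates 6, 10 and 14, and 436, 461 and 457 CPM in control replicates 5, 9 and 13. All LOWAA libraries lay below all libraries of the other 2 groups, whereas HIGHGLUC was split, with replicate 6 inside the control range and the other libraries below it. The means were 299.9 ± 26.1 CPM in LOWAA, 377 ± 53.9 CPM in HIGHGLUC and 451 ± 13.8 CPM in control (SD, n = 3 each). The log2 fold change was -0.59 ± 0.11 (SE) for LOWAA and -0.26 ± 0.11 for HIGHGLUC against control. Without HIGHGLUC replicate 6 the HIGHGLUC value was -0.38. Relative to PARP1 on the RPKM scale, PARP14 stood at 0.836 ± 0.068 in LOWAA, 1.17 ± 0.287 in HIGHGLUC and 1.37 ± 0.0687 in control.

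DTX3L (ENSBTAG00000009933, chromosome 1, 67588919 to 67597019, 5 exons) encodes the ubiquitin ligase that binds PARP9. It had 215, 190.5 and 248 CPM in LOWAA, 236, 232 and 238 CPM in HIGHGLUC and 283, 282 and 291 CPM in control. Every LOWAA and every HIGHGLUC library lay below every control library, and LOWAA spread more widely (28.9 CPM SD) than HIGHGLUC (2.87 CPM SD) or control (5.01 CPM SD). Its log2 fold change was -0.39 ± 0.10 for LOWAA and -0.28 ± 0.10 for HIGHGLUC against control.

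PARP9 (ENSBTAG00000021791, chromosome 1, 67559267 to 67589062, 11 exons), the partner of DTX3L, was not used to choose the genes. It had 189, 188 and 219 CPM in LOWAA, 200.2, 234 and 209 CPM in HIGHGLUC and 253, 232 and 248 CPM in control. LOWAA lay wholly below control, and HIGHGLUC reached into the control range through replicate 10. For LOWAA against control the log2 fold change was -0.30 ± 0.09 (95% interval -0.50 to -0.09, unadjusted p = 0.00793, adjusted p = 1.00 in edgeR), which did not pass the threshold of 0.05. For HIGHGLUC against control it was -0.19 ± 0.09 (95% interval -0.39 to 0.02, edgeR adjusted p = 1.00). The PARP9 and DTX3L gene models share 144 bases, and the library kit keeps no strand, so reads in that stretch cannot be split between them by strand. The RPKM of PARP9 stood at 0.729 ± 0.0496 of that of DTX3L in LOWAA, 0.723 ± 0.0682 in HIGHGLUC and 0.68 ± 0.0279 in control, and these ranges overlapped.

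**Figure D1:**
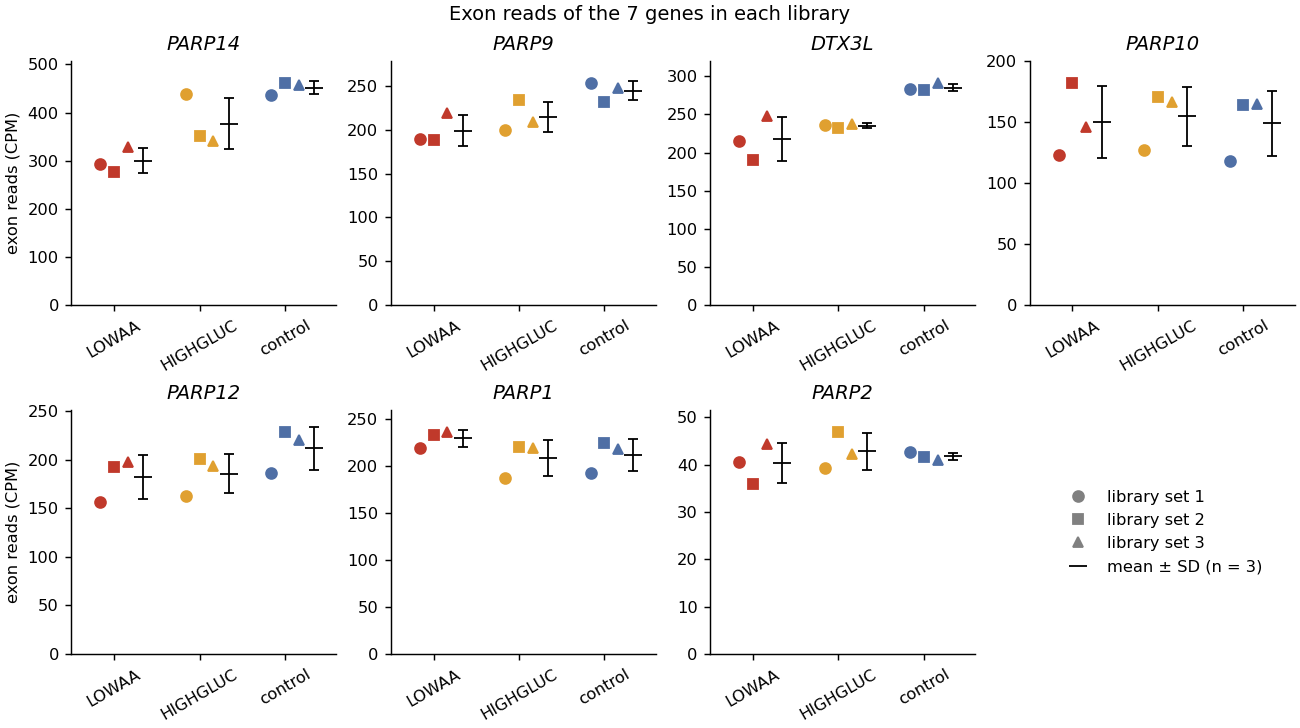
Exon reads (CPM, y axes from 0) of the 7 genes in each library, with the groups on the x axis, symbols for the runs of library numbers (set 1: 5, 6, 8; set 2: 9, 10, 12; set 3: 13, 14, 15) and the mean ± SD of 3 libraries beside them. PARP14, PARP9 and DTX3L lie lower in all 3 LOWAA libraries (277 to 328, 188 to 219 and 190.5 to 248 CPM) than in control, while PARP10, PARP1 and PARP2 overlap between all groups.

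In LOWAA against control, 3 of the 7 genes were lower without overlap (PARP14, DTX3L and PARP9). Over all tested genes this held for 593 (5.01%), and since PARP14 and DTX3L were chosen in this comparison, only PARP9, 1 of the 5 other genes, can be set beside that share. In HIGHGLUC against control, DTX3L was lower without overlap, as were 3.57% of all tested genes. Nothing is read from that share, since DTX3L was chosen in this comparison, and 0 of the 5 genes not used for the choice were lower without overlap. The median log2 fold change of the 5 interferon-induced genes was -0.30 for LOWAA and -0.19 for HIGHGLUC, beside 0.00 over all tested genes in both comparisons, and it includes the 2 chosen genes. Both comparisons share the control libraries. At an adjusted p under 0.05, edgeR and limma-voom called 0 genes in either comparison, and DESeq2 called 4 for LOWAA (ERRFI1, PARP14, TXNIP and ZFP36) and 0 for HIGHGLUC. The call of PARP14 is no independent result, since PARP14 was chosen in this comparison. At an unadjusted p under 0.05, edgeR had 474 genes (4%) for LOWAA and 353 (2.98%) for HIGHGLUC.

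PARP12 (ENSBTAG00000016546, chromosome 4, 104310324 to 104356479, 12 exons), a mono-ADP-ribosylating PARP with zinc fingers, had 156, 192 and 198 CPM in LOWAA. It had 163, 201 and 193 CPM in HIGHGLUC and 186, 228 and 220.4 CPM in control. In each group the library with the lowest number (5, 6 or 8) had the lowest value, and both LOWAA and HIGHGLUC overlapped with control. The log2 fold change was -0.22 ± 0.12 for LOWAA (95% interval -0.47 to 0.04, edgeR adjusted p = 1.00) and -0.19 ± 0.12 for HIGHGLUC (95% interval -0.45 to 0.06, edgeR adjusted p = 1.00). The values were -0.12 for LOWAA without LOWAA replicate 8 and -0.11 for HIGHGLUC without HIGHGLUC replicate 6, the lowest library of each group. Without control replicate 5, the lowest control library, they were -0.30 for LOWAA and -0.27 for HIGHGLUC.

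PARP10 (ENSBTAG00000009677, chromosome 14, 2024712 to 2031386, 10 exons), another mono-ADP-ribosylating PARP, had 123, 182 and 146 CPM in LOWAA. It had 127, 170.5 and 167 CPM in HIGHGLUC and 118, 164 and 165 CPM in control. The groups overlapped throughout, and libraries 5, 6 and 8 again had the lowest value of their groups. Against control the log2 fold change was 0.01 ± 0.18 for LOWAA (95% interval -0.40 to 0.41) and 0.05 ± 0.18 for HIGHGLUC (95% interval -0.35 to 0.45), both with an edgeR adjusted p of 1.00. The LOWAA interval does not reach the value of PARP14 (-0.59), but PARP14 was chosen for being lower than control. Nothing is read from this gap, and the difference between the genes was not tested.

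PARP1 (ENSBTAG00000000837, chromosome 16, 30119201 to 30160574, 23 exons), the main sensor of DNA breaks in the family, had 219.7, 233 and 236 CPM in LOWAA, 187, 220.5 and 219.6 CPM in HIGHGLUC and 193, 225 and 218 CPM in control. PARP2 (ENSBTAG00000009374, chromosome 10, 26799839 to 26814032, 17 exons), its smaller relative, had 40.5, 35.9 and 44.4 CPM in LOWAA, 39.2, 46.8 and 42.3 CPM in HIGHGLUC and 42.6, 41.6 and 41 CPM in control. For both genes the groups overlapped. The log2 fold change of PARP1 was 0.11 ± 0.09 for LOWAA (95% interval -0.09 to 0.32) and -0.02 ± 0.09 for HIGHGLUC (-0.22 to 0.18). That of PARP2 was -0.05 ± 0.11 for LOWAA (95% interval -0.28 to 0.18) and 0.04 ± 0.11 for HIGHGLUC (-0.19 to 0.27). All 4 had an edgeR adjusted p of 1.00, and the intervals leave room for small differences in either direction.

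The mean of LOWAA and HIGHGLUC against control gave a log2 fold change of -0.42 ± 0.09 for PARP14, -0.33 ± 0.08 for DTX3L and -0.24 ± 0.08 for PARP9 (edgeR unadjusted p = 0.0106, adjusted p = 1.00). PARP12 had -0.21 ± 0.10 (edgeR adjusted p = 1.00). PARP10, PARP1 and PARP2 had 0.03 ± 0.16, 0.05 ± 0.08 and -0.01 ± 0.09. DTX3L had all 6 LOWAA and HIGHGLUC libraries below all 3 control libraries, as did 1.02% of all tested genes, a share from which nothing is read because DTX3L was chosen for being lower than control. Of the 5 genes not used for the choice 0 did so. In this comparison edgeR, DESeq2 and limma-voom called 0 genes, and edgeR had 427 (3.61%) at an unadjusted p under 0.05.

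Between LOWAA and HIGHGLUC, a comparison the choice of genes did not use, PARP14 was lower without overlap in LOWAA than in HIGHGLUC, with a log2 fold change of -0.33 ± 0.11 (95% interval -0.56 to -0.10, edgeR unadjusted p = 0.0086, adjusted p = 1.00). It was 1 of the 7 genes to do so, beside 4.43% of all tested genes. Without HIGHGLUC replicate 6, the highest of that group, the value was -0.21. PARP14 was chosen through these same LOWAA and HIGHGLUC libraries, set against control. Its p-value and its place beside that share are therefore not independent of the choice. DTX3L and PARP9 had -0.11 ± 0.10 (95% interval -0.32 to 0.09) and -0.11 ± 0.09 (95% interval -0.31 to 0.09), both with an edgeR adjusted p of 1.00 and overlapping groups. PARP10, PARP12, PARP1 and PARP2 lay between -0.09 and 0.14. The tools called 0 genes in edgeR, 0 in limma-voom and 3 in DESeq2, among them TXNIP and ZFP36, and edgeR had 376 genes (3.18%) at an unadjusted p under 0.05.

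Intron reads, which come from unspliced transcripts or from other RNA within the gene's span, were scaled to the intron reads of the library and tested in a fit of their own. PARP14 had 222, 171 and 172 intron CPM (per 1000000 intron reads) in LOWAA, 191, 182 and 162 in HIGHGLUC and 215, 231 and 237 in control. Here HIGHGLUC lay wholly below control (-0.36 ± 0.17 on the log2 scale), while LOWAA overlapped with it through replicate 8 (-0.29 ± 0.17), the reverse of the exon reads. The LOWAA value shrank to -0.11 when intron reads were scaled by the exon library sizes.

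PARP9 had 110.4, 131 and 132 intron CPM in LOWAA, 148, 150.0 and 162 in HIGHGLUC and 181, 198 and 179 in control. The 3 groups were fully separated, with LOWAA lowest, HIGHGLUC between and control highest. Its intron log2 fold change was -0.59 ± 0.17 for LOWAA against control (95% interval -0.93 to -0.24, unadjusted p = 0.00209, edgeR adjusted p = 0.461) and -0.28 ± 0.17 for HIGHGLUC against control (95% interval -0.63 to 0.06, edgeR adjusted p = 1.00). With exon library sizes the LOWAA value was -0.36. LOWAA against HIGHGLUC had -0.30 ± 0.17 and turned to 0.06 with exon library sizes, so the order of these 2 groups depends on the scaling.

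PARP10 had 174, 187 and 166 intron CPM in LOWAA, 346, 231 and 254 in HIGHGLUC and 283, 263 and 280.1 in control. LOWAA lay wholly below both other groups, which overlapped, although the exon reads of PARP10 did not separate the groups. The log2 fold change was -0.65 ± 0.18 for LOWAA against control (95% interval -1.03 to -0.26, unadjusted p = 0.00218, edgeR adjusted p = 0.461) and -0.66 ± 0.18 for LOWAA against HIGHGLUC (95% interval -1.04 to -0.27, unadjusted p = 0.00178, edgeR adjusted p = 0.506). With exon library sizes the LOWAA value was -0.41 against control and -0.27 against HIGHGLUC. Intron reads were 12% of the PARP10 gene reads in LOWAA, 14.4% in HIGHGLUC and 15.6% in control, and LOWAA against control differed by -3.63 percentage points (exact two-sided permutation p = 0.10, the smallest that 3 against 3 libraries allow, adjusted p = 0.785 over 17 such tests of the members' shares).

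PARP12 had 450.4, 455 and 423 intron CPM in LOWAA, 369, 368 and 457 in HIGHGLUC and 494, 479 and 504 in control. LOWAA and HIGHGLUC both lay wholly below control. Its intron log2 fold change was -0.15 ± 0.18 for LOWAA (95% interval -0.53 to 0.23, edgeR adjusted p = 0.916), which turned to 0.08 with exon library sizes, and -0.31 ± 0.18 for HIGHGLUC (95% interval -0.69 to 0.07, edgeR adjusted p = 1.00).

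DTX3L, PARP1 and PARP2 had few intron reads. DTX3L had 12, 26 and 21 reads in LOWAA, 26, 26 and 13 in HIGHGLUC and 3, 68 and 57 in control, so its log2 fold changes of -1.11 ± 0.32 for LOWAA and -0.43 ± 0.31 for HIGHGLUC rest on small numbers, and the groups overlapped. PARP1 and PARP2 had at most 25 intron reads in any library, with 95% intervals from -0.53 to 1.22 (PARP1) and from -0.38 to 1.41 (PARP2) for LOWAA against control.

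**Figure D2:**
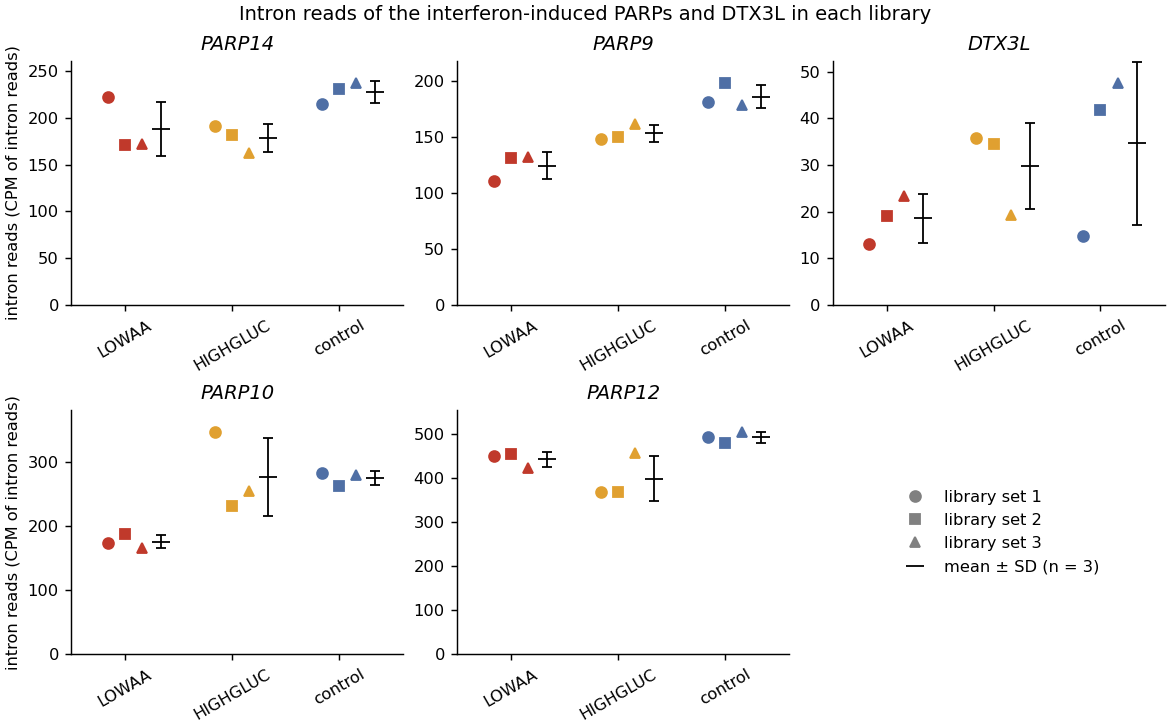
Intron reads (CPM of the library's intron reads, y axes from 0) of the interferon-induced PARPs and DTX3L in each library, with symbols for the runs of library numbers and the mean ± SD of 3 libraries. On this scale PARP9 separates all 3 groups, PARP10 is lowest in LOWAA (166 to 187), and DTX3L scatters between 13.1 and 47.5 intron CPM. The order of LOWAA and HIGHGLUC in PARP9 depends on the scaling.

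In intron reads of LOWAA against control, 3 of the 7 genes were lower without overlap (PARP9, PARP10 and PARP12), beside 5.99% of all tested genes, and none of the 3 had been used to choose the genes. In HIGHGLUC against control PARP9 and PARP12 were, beside 4.24%, as was PARP14, which was chosen in this comparison, and in LOWAA against HIGHGLUC PARP9 and PARP10, beside 5.94%. These counts hold on the scale of the library's intron reads, and overlap was not counted with exon library sizes. Those sizes gave -0.36 (PARP9), -0.41 (PARP10) and 0.08 (PARP12) on the log2 scale for LOWAA against control, so the separation may depend on the scaling. After adjustment edgeR called 0 genes in each of these comparisons, the only tool run on intron reads, with 667 (6.87%), 315 (3.24%) and 748 (7.7%) genes at an unadjusted p under 0.05. Intron reads made up 7.05% to 13.7% of the gene reads of a library, with LOWAA replicate 12 the highest and control replicate 5 the lowest. The part of this spread in the intron values was not tested beyond the change of scaling given above.

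**Figure D3:**
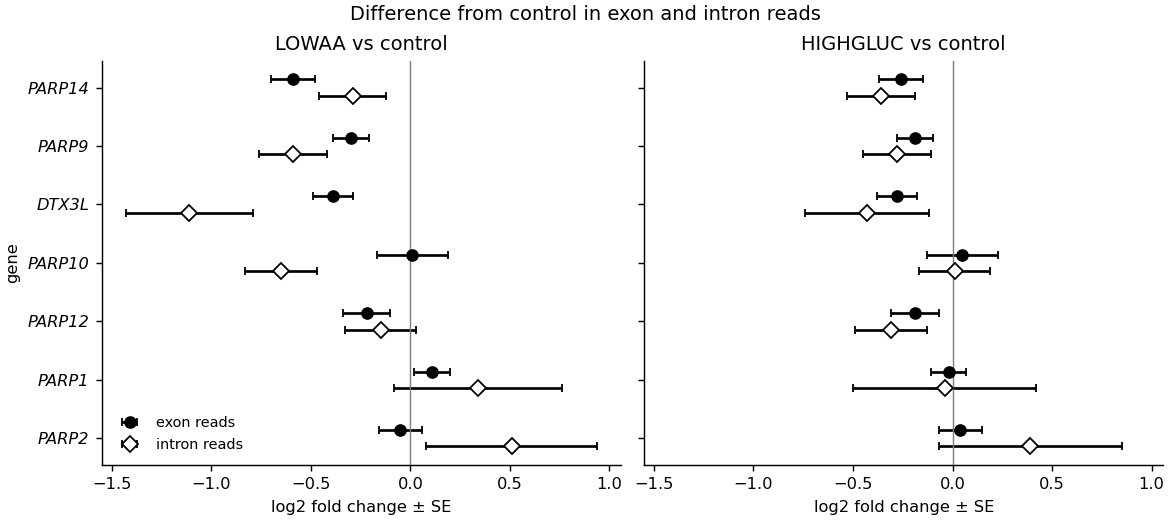
Log2 fold change ± SE against control for exon reads (filled circles) and intron reads (open diamonds) of the 7 genes, with LOWAA on the left and HIGHGLUC on the right on the same x axis. In LOWAA the exon and intron values of PARP10 stand apart (0.01 and -0.65), and PARP14 has the lowest exon value (-0.59).

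The genes also differed in the ratio of intron to exon reads. Per kilobase, intron reads of PARP10 were at 13.8% of its exon reads over all libraries pooled, a higher ratio than 94% of the 11771 tested genes with introns, whose median was 1.12%. PARP12 had 1.68%, PARP9 0.947%, PARP14 0.78% and DTX3L 0.619%, all between the quartiles of 0.429% and 2.99%. PARP2 had 0.394% and PARP1 0.0592%, and the ratio of PARP1 was above that of only 4.4% of genes. Reads over exon junctions made up 19.0% of the exon reads of DTX3L, 24.4% to 35.7% for PARP10, PARP14, PARP9 and PARP12, 59.8% for PARP1 and 67.6% for PARP2. The number of exons per kilobase of exon had almost the same order, from 1.92 in DTX3L to 6.41 in PARP1 and 9.15 in PARP2.

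PARP9, DTX3L and PARP14 lie side by side on chromosome 1, within 100000 bases from the start of PARP9 to the end of PARP14. Within 1 Mb of the start of DTX3L the table held 32 genes, of which 18 were tested, 15 of them other than these 3. Only PARP9 can be set beside the 15, since PARP14 and DTX3L were chosen for being lower than control. For LOWAA against control those 15 ran from -0.28 ± 0.15 (FAM162A, a mitochondrial protein) to 0.22 ± 0.11 (IQCB1, a cilium protein), with a median of -0.06 and 8 below 0. For HIGHGLUC they ran from -0.50 ± 0.69 (CSTA, a protease inhibitor at 1.52 CPM) to 0.27 ± 0.64 (MYLK, a myosin kinase), with a median of -0.07 and 10 below 0. KPNA1, an importin next to PARP9, had -0.13 ± 0.10 for LOWAA and 0.06 ± 0.10 for HIGHGLUC, and HSPBAP1, next to PARP14, had -0.24 ± 0.21 for LOWAA and -0.08 ± 0.21 for HIGHGLUC. None of the 15 had an unadjusted p under 0.05 in edgeR in either comparison, and their adjusted p was 1.00, as it was for PARP9.

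**Figure D4:**
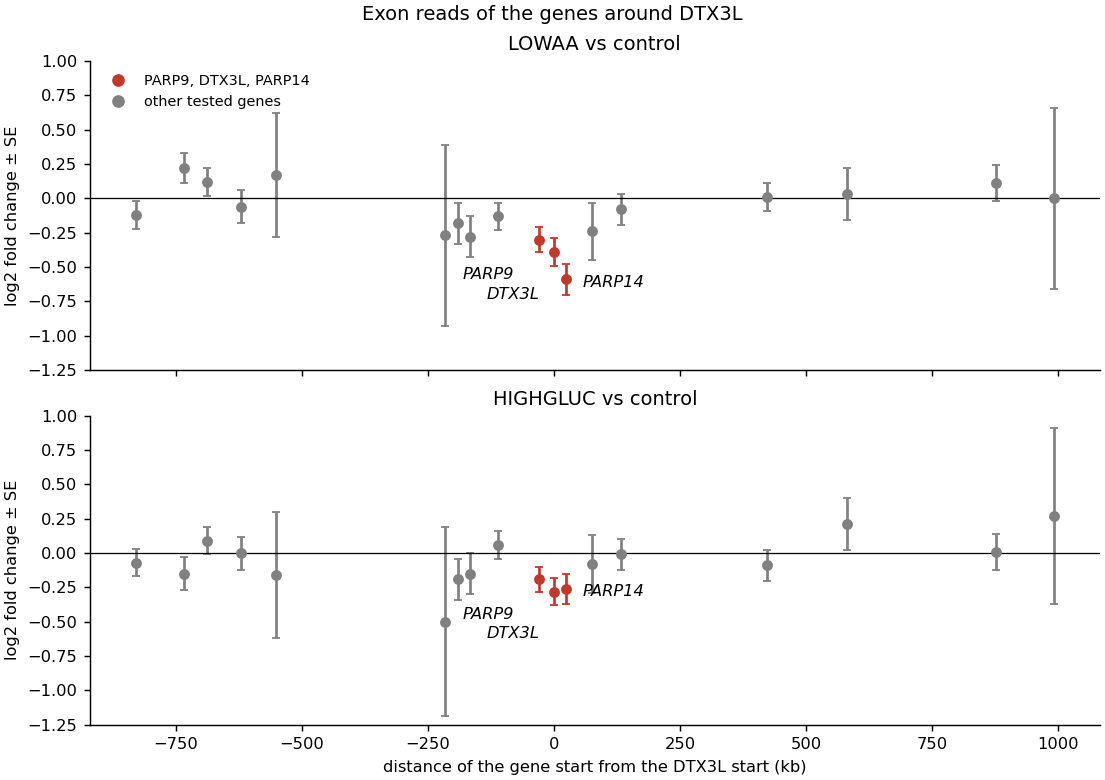
Log2 fold change ± SE of exon reads for the 18 tested genes within 1 Mb of the DTX3L start, by the distance of their start from it in kb, for LOWAA (top) and HIGHGLUC (bottom) against control. PARP9, DTX3L and PARP14 (red) lie at -0.30, -0.39 and -0.59 in LOWAA, while the other genes (grey) lie between -0.28 and 0.22. In HIGHGLUC the red genes lie at -0.19, -0.28 and -0.26, and the grey genes between -0.50 and 0.27. DTX3L and PARP14 were chosen for being lower than control.

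The transcripts whose profile over the 9 libraries was most like that of PARP14, by the root mean square difference of centred log2 CPM among 9028 genes, were C16orf87 (0.0731), MOG (0.112), PHF13 (0.123), RBM43 (0.128), KPNA4 (0.136), EPSTI1 (0.138), MORC3 (0.138) and DTX3L (0.138). The profile of PARP14 itself had a root mean square of 0.267, and PARP9 was in place 105. EPSTI1 is an interferon-induced gene in human cells, and it had -0.28 ± 0.10 for LOWAA and -0.17 ± 0.10 for HIGHGLUC against control. Nearest to DTX3L were DDX58 (0.0629), ZNFX1 (0.0692), NEMP1 (0.0834), TDRD7 (0.0845) and EIF2AK2 (0.0849), beside a root mean square of 0.19 for DTX3L itself. DDX58 encodes the RNA sensor RIG-I and EIF2AK2 the kinase PKR, and PARP9 came in place 9 (0.0932). Among the 5 nearest to PARP1 were BUB3 (0.0369), H2AFY (0.0378), RPTOR (0.0431) and ALDH18A1 (0.044), beside 0.107 for PARP1 itself. PARP14 and DTX3L were chosen for being lower than control, so genes near their profiles tend to be lower too. Nothing is read from the direction of these neighbours. Functions are given for some neighbours only, and interferon-induced genes among them were not counted. These distances describe the 9 libraries and were not tested.

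Other genes of ADP-ribosylation were described as lists, in log2 fold changes of LOWAA against control, with edgeR adjusted p = 1.00 for every gene. Of 10 other tested ADP-ribosyltransferases 4 were below 0 and 6 above, with a median of 0.05, beside 0.00 for all tested genes. Among them TNKS2, a tankyrase that builds chains, had -0.20 ± 0.08, TIPARP, a dioxin-induced PARP, -0.21 ± 0.09, PARP4 0.20 ± 0.10 and TNKS -0.14 ± 0.08. ZC3HAV1, the antiviral zinc finger PARP, had 0.05 ± 0.10. Of 8 tested genes that remove or hydrolyse ADP-ribose 4 were below 0 and 4 above, with a median of -0.01. NUDT5, an ADP-ribose hydrolase, had 15.4 ± 1.11 CPM in LOWAA, 14.9 ± 0.881 CPM in HIGHGLUC and 18.6 ± 0.855 CPM in control, and its values were -0.27 ± 0.12 for LOWAA and -0.32 ± 0.12 for HIGHGLUC. TRPT1 had 0.68 ± 0.30, ADPRHL2, which removes ADP-ribose from serine, 0.32 ± 0.15, and PARG, which cuts ADP-ribose chains, -0.11 ± 0.13.

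The 3 tested Deltex relatives of DTX3L were above 0, with a median of 0.13, and were led by DTX2 (0.29 ± 0.11). DTX3 had 0.13 ± 0.11, DTX4 0.01 ± 0.39, and DTX1 had 2 reads in all libraries together. Of 11 tested genes of NAD supply and use 9 were below 0 and 2 above, with a median of -0.11. BST1, an ecto-enzyme that consumes NAD, had the lowest value, -1.32 ± 0.42, at 1.04 ± 0.205 CPM in LOWAA and 2.82 ± 1.18 CPM in control. NADK, the NAD kinase, had 0.15 ± 0.07, NAPRT, which makes NAD from nicotinic acid, 0.29 ± 0.16, and NAMPT, which recycles nicotinamide, -0.18 ± 0.13.

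The 6 tested genes of the type I interferon receptor and its signalling, which act upstream of the interferon-induced PARPs, were all below 0 in LOWAA, with a median of -0.03, and 2 of the 6 were below 0 in HIGHGLUC, with a median of 0.03. STAT2 had 105 ± 5.83 CPM in LOWAA, 111 ± 4.67 CPM in HIGHGLUC and 123 ± 12.4 CPM in control, and -0.24 ± 0.09 for LOWAA against control. IRF9 had -0.13 ± 0.09, JAK1 -0.06 ± 0.08 and TYK2 -0.01 ± 0.09. Of 11 tested partners of PARP1 and PARP2 in single-strand break repair 4 were below 0 and 7 above, with a median of 0.04. Among them POLB had 0.14 ± 0.12, XRCC1 0.15 ± 0.16 and CHD1L -0.09 ± 0.11.

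The authors' deposited table gives a signed weighted proportions fold change, negative for a lower value in the group named first, on quantile normalised values. At an FDR corrected p under 0.05 (Baggerley's test) the authors' deposited table has 77 genes for LOWAA against control, 11 for HIGHGLUC against control and 44 for LOWAA against HIGHGLUC, whereas edgeR called 0 in each. In the authors' deposited table LOWAA against control was -1.51 for PARP14, -1.29 for DTX3L and -1.21 for PARP9, the last with an FDR corrected p of 0.0568. It was -1.16 for PARP12, 1.02 for PARP10, 1.1 for PARP1 and -1.04 for PARP2 in the authors' deposited table, each with a corrected p of 1.0. HIGHGLUC against control in the authors' deposited table was -1.22 for PARP14, -1.2 for DTX3L, -1.14 for PARP12 and -1.13 for PARP9. PARP10, PARP1 and PARP2 lay between -1.01 and 1.05 in the authors' deposited table for HIGHGLUC.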

How the data were processed

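Total RNA of BEEC was sequenced in 9 libraries as single reads of 50 bp, though the file headers call the libraries paired. Bowtie2, HTSeq 0.5.4p2 and build UMD3.1 are named in the submitters' processing notes, without their roles. The deposited table holds raw read counts per gene (total exon, unique exon, exon-exon and intron reads, per the file headers). The authors' RPKM columns give total exon reads per kilobase. The deposited signal columns are quantile normalised values. The authors' fold change is a signed score, and their p-value columns hold FDR corrected values of Baggerley's test, per the file headers. Other deposited columns give gene ID, position, exons and exon length. The table has 231 columns. Of these 67 were read, and 137 further columns with values of libraries stayed unused.

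Exon counts and intron counts were each filtered with filterByExpr (minimum count 10), scaled with TMM (CPM in the text carries these factors, except for cell type markers) and tested by robust quasi-likelihood F-tests (edgeR 4.0.16, R 4.3.3). All 9 libraries entered 1 fit with the group as its only term, and p was adjusted by Benjamini-Hochberg over all tested genes (threshold 0.05). The text calls values lower without overlap when every library of one group lies below every library of the other. Chi-square per degree of freedom between libraries of one group was 8.37 to 27, well above sampling noise. For a gene with no read the limit is 3 reads (0.215 to 1.04 exon CPM, counting error only).

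Alternatives were other size factors, DESeq2 1.42.0, limma-voom (limma 3.58.1), no filter, other read classes, 2 groups only, quantile normalised values (log2 of the value + 1), exon library sizes for intron reads, the runs of library numbers as a block, and leaving out each library. Leaving out libraries for intron shares was added after seeing the data. The members and lists were chosen with earlier results of these data known. Named genes are the 7 members, up to 4 per list with the smallest p in LOWAA against control, genes of the locus, the 8 (PARP14) or 5 (DTX3L, PARP1) nearest profiles among genes with at least 5 CPM, and genes of counts of 5 or fewer. Some genes that this rule names are not reported here. ZC3HAV1 and DTX1 were named after their values were seen.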

Additional observations from a re-analysis of the deposited data

How the results depend on the processing

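Over the members' exon log2 fold changes 495 alternative values kept their direction and, where they carry a test, their side of the threshold, and 30 changed sign. For intron log2 fold changes 240 did, 11 changed sign and 1 moved by more than the spread. For intron shares 136 did and 11 changed sign. PARP14 and DTX3L against control carry no test, so their side of the threshold was not compared. The DESeq2 call of PARP14 for LOWAA against control is therefore not counted as a change. No other comparison of a member passed an adjusted p of 0.05 in any alternative, and the lowest was 0.0999 (PARP14, LOWAA against HIGHGLUC, runs as a replicate block with unique exon reads). The cause of these changes was not tested.

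Counts of genes called, 0 in every comparison, became 4 (LOWAA against control) and 3 (LOWAA against HIGHGLUC) in exon reads with DESeq2. With the runs of library numbers as a replicate block, exon counts were 19 for LOWAA, 3 for HIGHGLUC (ATP8B4, cytb and S100A2) and 16 for the mean of both against control, and 17 for LOWAA against HIGHGLUC. With the replicate block and unique exon reads they were 57, 8, 35 and 36. In intron reads the replicate block gave 14 for LOWAA against control and 16 for LOWAA against HIGHGLUC, and no filter gave 34, 14 for HIGHGLUC against control, and 27. Leaving out libraries gave 0 to 1 in exon reads of LOWAA against control (TXNIP without HIGHGLUC replicate 6). In intron reads it gave 0 to 3 for LOWAA against control (ATOH8, ENSBTAG00000013671 and HK2 without HIGHGLUC replicate 6, RSAD2 without LOWAA replicate 8). For LOWAA against HIGHGLUC it gave 0 to 2 in intron reads (SMC2 without control replicate 5, ISG15 and KRT18 without HIGHGLUC replicate 10, CD44 and SMC2 without HIGHGLUC replicate 14).

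The numbers do not pair the samples by the labels. After removal of group means 7 of 9 pairs within a run correlated above 0.1 in total exon reads (lowest 0.0221), the reads tested, and not all pairs did, so the block stayed an alternative. In unique exon reads 9 of 9 pairs did (0.198 to 0.452), a hint from the data that libraries of a run belong together. Between runs, 6 of 18 pairs were above 0.1 in total exon reads and 0 of 18 in unique exon reads (highest 0.0319). The fit without the block counts any spread between runs as scatter. The biological coefficient of variation was 0.171 without the block, 0.107 with the replicate block, and 0.0722 with it and unique exon reads. With the replicate block the exon value of PARP9 for LOWAA against control had an edgeR adjusted p of 0.215 and that of PARP12 of 0.317.

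Sign changes in exon log2 fold changes concerned PARP10, PARP2, PARP1 and PARP12 near 0. PARP10 in LOWAA against control had -0.02 with limma-voom, 0.00 with unique exon reads and -0.10 with exon-exon reads, which gave -0.06 for HIGHGLUC and -0.08 for the mean of both. PARP2 had 0.00 for the mean of both with either replicate block. Leaving out a library, PARP10 ranged from -0.15 to 0.13 for LOWAA, -0.09 to 0.18 for HIGHGLUC, -0.11 to 0.11 for the mean of both and -0.20 to 0.08 for LOWAA against HIGHGLUC. PARP2 ranged from -0.12 to 0.03 for LOWAA, -0.03 to 0.10 for HIGHGLUC and -0.04 to 0.03 for the mean of both. PARP1 ranged from -0.08 to 0.05 for HIGHGLUC and -0.01 to 0.09 for the mean of both, and PARP12 from -0.11 to 0.07 for LOWAA against HIGHGLUC.

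In intron log2 fold changes, exon library sizes gave 0.08 for PARP12 in LOWAA against control, -0.14 for PARP10 in HIGHGLUC against control and 0.06 for PARP9 in LOWAA against HIGHGLUC. PARP10 in HIGHGLUC against control had -0.02 with the replicate block and -0.18 to 0.12 when a library was left out. PARP1 ranged from -0.23 to 0.14 there, and in LOWAA against HIGHGLUC PARP14 ranged from -0.07 to 0.16 and PARP2 from -0.11 to 0.32. Intron shares, in percentage points, ranged for PARP9 from -1.94 to 0.815 in LOWAA against control and -1.01 to 1.74 in LOWAA against HIGHGLUC, and for DTX3L from -0.425 to 0.135 in LOWAA against HIGHGLUC. In HIGHGLUC against control they ranged from -3.24 to 0.0382 for PARP10, -0.175 to 0.178 for PARP1 and -0.0092 to 0.90 for PARP2.

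With 3 libraries per group and a biological coefficient of variation of 0.171, and with few intron reads in DTX3L, PARP1 and PARP2, small differences could not be resolved here.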

Other observations

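The exon reads of PARP10 followed the runs of library numbers more than the groups. The run of 5, 6 and 8 had 118 to 127 CPM in all 3 groups, the run of 9, 10 and 12 had 164 to 182 CPM and the run of 13, 14 and 15 had 146 to 167 CPM. What the numbers stand for is not given in the sources used here. Compared only within a run, as LOWAA or HIGHGLUC minus control, exon reads of PARP12 were below control in 6 of 6 differences, from -0.25 to -0.15 on the log2 scale, and DTX3L in 6 of 6, from -0.57 to -0.23. PARP14 was below control in 5 of 6 (-0.74 to 0.01) and PARP9 in 5 of 6 (-0.42 to 0.01), whereas PARP10 was below in 1 of 6 (-0.18 to 0.15), PARP1 in 2 of 6 (-0.05 to 0.19) and PARP2 in 3 of 6 (-0.21 to 0.17). In intron reads PARP9 was below control in 6 of 6 (-0.71 to -0.14) and PARP12 in 6 of 6 (-0.42 to -0.07). PARP14 was below in 5 of 6 (-0.55 to 0.05), PARP10 in 5 of 6 (-0.75 to 0.29) and, on few reads, DTX3L in 5 of 6 (-1.31 to 1.28) and PARP2 in 0 of 6 (0.44 to 0.84). PARP1 was below in 3 of its differences (-0.59 to 0.58), which leave out the run of control replicate 5, with 0 PARP1 intron reads. Nothing is read from the counts of PARP14 and DTX3L, chosen for being lower than control. Each control library enters a LOWAA and a HIGHGLUC difference, so the 6 are not separate observations. The share of all tested genes with such counts was not computed.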
